A study of Mus musculus with 6 samples.

Results

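The T cell receptor and the proteins closest to it were described through 38 genes, chosen by name and role from the 54525 genes of the count table. They comprised 8 receptor and coreceptor genes, 5 kinases, 8 adaptors, 7 effectors, 9 negative regulators and Ptprc, which encodes the phosphatase CD45. All 38 were found, and all 38 were among the 16006 genes with enough counts to be tested.

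The receptor recognises peptide on MHC through its variable chains, which have no enzymatic activity and signal through the CD3 chains and the zeta chain bound to them. The kinase Lck phosphorylates tyrosine motifs in these chains, ZAP-70 docks there and phosphorylates the scaffold LAT, and the complexes built on LAT lead to calcium, Ras and NF-kB signals. Phosphatases, ubiquitin ligases and lipid kinases limit the signal at each of these steps.

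The data are RNA sequencing of total RNA from 6 cultures of mouse C57BL/6 T cells. Naive CD4 T cells taken from spleens and lymph nodes were kept for 72 hours on coated antibodies to CD3 and CD28 with rh-TGFβ and m-IL-6, which steers CD4 T cells toward the interleukin 17 producing Th17 type. The KO group was 3 cultures with the genotype iCD4-PRMT5delta/delta, and the WT group was 3 cultures with iCD4-PRMT5fl/fl. The groups shared the stimulus, the cytokines and the time, so the receptor had been engaged by antibody in every culture. The sources used here do not spell out iCD4, name what drives the deletion or when it took place, or give the age of the mice. The series design gives 3 biological replicates for each genotype, but the sources do not say whether these came from separate animals. P-values therefore measure the spread between these cultures, whose independence is not stated. The column headers of the KO libraries join the numbers 36, 39 and 53 each to 51, whose meaning is not stated, while those of the WT libraries carry 30, 42 and 52.

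Prmt5, the targeted gene (chr14:54507187-54517525 on GRCm38, minus strand), encodes the main enzyme for symmetric dimethylation of arginine. Its level was 52.4, 43.8 and 52.9 CPM (counts scaled to a common library total, after TMM scaling) in KO replicates 1, 2 and 3, against 109, 137 and 118 CPM in WT replicates 1, 2 and 3. All KO libraries lay below all WT libraries, at 41.0% of the WT mean (log2 change -1.29 ± 0.11 SE, edgeR adjusted p = 0.00012). The exact permutation p of 0.1 is the smallest that 3 against 3 libraries allow.

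Libraries held 36489789 to 41467126 counts in KO and 36011906 to 43141474 in WT, so that a gene at 0 counts may still be present at up to 0.0697 to 0.0835 CPM, a floor of 3 counts that covers counting error only. The 10 T cell markers (3 called higher, 1 lower and 6 not called) summed to 3056 to 3073 CPM in KO and 2763 to 2993 CPM in WT. Among them, Cd3e, Cd3d, Cd3g, Cd4 and Cd5 also belong to the 38 genes, so this sum is not independent of them. The summed markers of each other cell type examined were higher in KO. The 6 B cell markers, among them Ms4a1, of which 5 were called higher, summed to 43.2 to 120 CPM in KO and 3.98 to 23.4 CPM in WT. The gamma delta T cell markers, led by Tcrg-C2 and Tcrg-C4, summed to 57.2 to 102 CPM in KO and 12.6 to 16.5 CPM in WT, with all 4 tested of 5 listed called higher. The CD8 genes Cd8a and Cd8b1, both called higher, summed to 14.7 to 17.2 CPM in KO and 5.58 to 7.88 CPM in WT. Natural killer and innate lymphoid markers, led by Klrk1 and Eomes (3 called higher and 1 lower of 6), summed to 48.0 to 97.0 CPM in KO and 31.5 to 37.8 CPM in WT. Myeloid markers, led by Lyz2 and Cd68 (4 called higher of 6), summed to 10.04 to 30.7 CPM in KO and 2.73 to 3.46 CPM in WT, although Cd68 itself was at 2.08 to 2.36 CPM in KO and 2.15 to 2.51 CPM in WT. Granulocyte and mast cell markers, led by Cpa3 and Mpo, summed to 2.36 to 17.7 CPM in KO and 0 to 0.085 CPM in WT. Most of the KO sum was Cpa3, at 3.22, 1.99 and 16.1 CPM, the only 1 of the 5 that was tested, and called higher. S100a8 and S100a9 were at 0 counts in all WT libraries and also in KO replicate 1. Mcpt4 was at 0 counts in all KO libraries and at 2 counts in WT replicate 1. Transcripts of 4 Y-linked genes summed to 566, 74.4 and 585 CPM in KO replicates 1, 2 and 3 and were at 0 counts in all WT libraries, so sex was not balanced between the genotypes. In bulk RNA, fewer cells of a type and less RNA per cell cannot be told apart, and the part of these differences in the results was not tested.

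WT replicate 2 stood apart for some of the 38 genes, though for a smaller share than over all tested genes. In it, Cd4, Csk and Dgkz lay more than 1.5-fold below the mean of the other WT libraries and Cd5 more than 1.5-fold above. These were 10.5% of the 38 genes, while 16.0% of all tested genes lay that far away. In the other libraries 7.30% to 13.3% of all tested genes did so. In WT replicate 1, Cd4, Csk and Dgkz (7.89% of the 38 genes) lay more than 1.5-fold above the mean of the other WT libraries. None of the 38 genes lay that far away in WT replicate 3 or the KO libraries. The cause was not tested. Where leaving out WT replicate 2 gave a call among the 38 genes, the value without it is given beside the result. Such values are also given for some other genes and pairs, but not for every one that this library moved.

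Of the 38 genes, 12 were called higher and 6 lower in KO, and 20 were not called. Called means an adjusted p under 0.05 in the edgeR quasi-likelihood test, with Benjamini-Hochberg adjustment across the 16006 genes. The share called was 47.4%, close to the 42.5% of all 16006 tested genes, of which 21.7% were called higher and 20.9% lower. The median log2 change, KO over WT, was 0.17 for the 38 genes and -0.0026 for all tested genes. Changes ran from -1.31 for Malt1 to 1.45 for Cblb, and 5 of the called genes (Cblb, Trat1, Themis, Cd2 and Malt1) changed by at least 1 on the log2 scale, against 14.6% of all tested genes. KO and WT libraries did not overlap for 25 of the 38 genes (65.8%), against 55.6% of all tested genes. 

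The counts depended on the scaling and on single libraries. With libraries scaled to the spike-in RNAs, which moved the median log2 change of all tested genes to 0.14, the split was 12 higher and 3 lower, against 27.8% of all tested genes called. Under that scaling Bcl10, Cd247, Dgka, Fyn, Grap2, Lat and Ptprc were not called, and Cd4, Cd5, Csk and Dgkz were called higher. Leaving out KO replicate 1, 2 or 3 left 15, 15 and 19 members called, against 31.7%, 35.1% and 34.1% of all tested genes, and leaving out WT replicate 1, 2 or 3 left 17, 24 and 16, against 38.8%, 42.7% and 32.2%. Of the KO libraries, replicate 2 had the lowest Y-linked level. When it alone stood for KO, 10 members were called against 16.3% of all tested genes, and Bcl10, Cd247, Cd3e, Fyn, Lat, Sla2, Tespa1 and Vav3 were not. With the Y-linked level as a term of the fit 11 were called against 21.7%, and Bcl10, Cd247, Fyn, Grap2, Lck, Sla2 and Vav3 were not. That level was 0 in all WT libraries, so the term rests on KO replicate 2 against KO replicates 1 and 3. The fit cannot separate sex from other traits of KO replicate 2. Cblb, Trat1, Ptpn22, Themis, Cd2 and Malt1 were called in each of the 16 alternative settings.

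**Figure D1:**
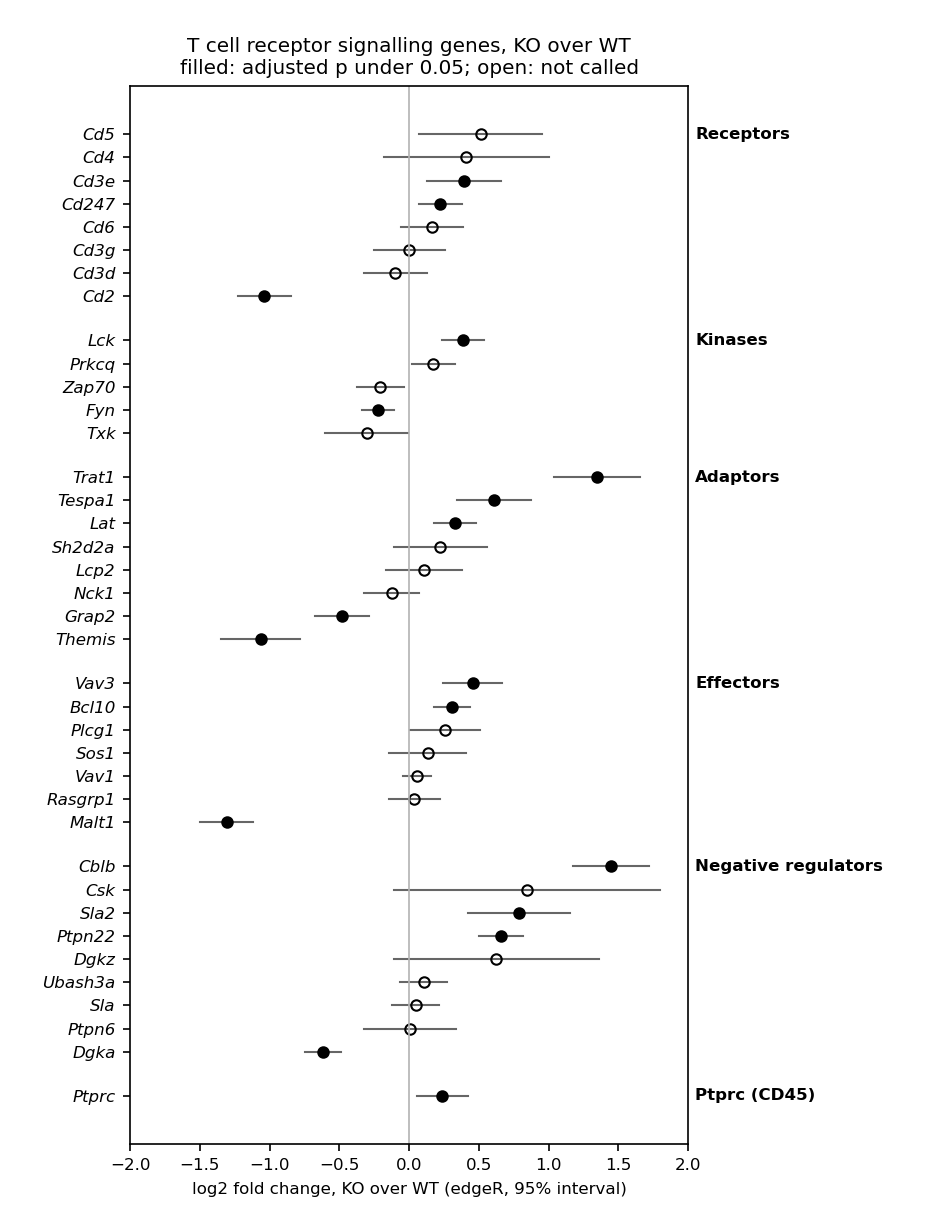
Log2 change of each of the 38 genes, KO over WT, with the 95% interval of the edgeR fit on 3 libraries per group, ordered by size within each class. Filled points are called and open points are not. Cblb and Trat1 lie farthest to the right and Malt1, Themis and Cd2 farthest to the left, and the widest intervals are those of Csk, Dgkz and Cd4.

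The invariant chains of the receptor differed in whether they were called, which is not a test of a difference between them. Of the CD3 and zeta chains, Cd3e and Cd247 were slightly higher in KO and Cd3d and Cd3g were not called. Cd3e, which encodes CD3 epsilon, the chain that pairs with both other CD3 chains, was at 25.0, 29.3 and 22.9 CPM in KO and 21.1, 19.7 and 17.9 CPM in WT. The lowest KO library lay above the highest WT library (log2 change 0.39 ± 0.11, edgeR adjusted p = 0.0274). Cd247, which encodes the zeta chain with most of the signalling motifs of the complex, was at 278, 290 and 254 CPM in KO and 228, 247 and 230 CPM in WT. These values also did not overlap, with KO replicate 3 just above WT replicate 2 (log2 change 0.22 ± 0.07, edgeR adjusted p = 0.0298). Neither call held when some libraries were left out: without WT replicate 3, for example, the edgeR adjusted p was 0.0995 for Cd3e and 0.108 for Cd247. Exons of Cd247 share 3007 bases with Pou2f1 on the opposite strand, whose counts were 14.3% of those of Cd247, and the sources do not state whether counting used the strand.

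Cd3d and Cd3g encode the delta and gamma chains, each of which binds epsilon. Cd3d was at 221, 192 and 214 CPM in KO and 201, 254 and 216 CPM in WT. The groups overlapped, with KO replicate 2 lowest and WT replicate 2 highest (log2 change -0.10 ± 0.10, 95% interval -0.32 to 0.13, edgeR adjusted p = 0.443). Cd3g was at 162, 159 and 160 CPM in KO, within the 138, 189 and 154 CPM of WT (95% interval of the log2 change -0.25 to 0.25, edgeR adjusted p = 0.991). Per kilobase of the gene length given by the authors, Cd3e was the lowest of the complex. It averaged 10.1 ± 1.28 CPM per kilobase in KO and 7.67 ± 0.64 in WT (SD, n = 3 each). The other chains averaged 129 (Cd3d), 92.7 (Cd247) and 63.2 (Cd3g) CPM per kilobase in KO, and 138, 79.5 and 63.1 in WT. That length covers a share of the merged exons that differs by gene, such as 2550 of 4080 bases for Cd3e and 1617 of 1815 for Cd3d. Comparisons between genes depend on this choice of length. Within libraries, the count ratio of Cd3d to Cd247 was 0.793, 0.661 and 0.843 in KO, against 0.881, 1.03 and 0.942 in WT, without overlap (exact two-sided permutation p = 0.1). The ratios of Cd3e and of Cd3g to Cd247 overlapped between the groups (exact p = 0.3 and 0.2).

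Cd3g, Cd3d and Cd3e are neighbours on chromosome 9. The start sites of Cd3d and Cd3g point away from each other, 1355 bases apart, and that of Cd3e is 27825 bases from that of Cd3d. The 250 bases before the start site of each (RefSeq, GRCm38.p6, written 5′ to 3′ on the strand of the gene) are shown because these adjacent genes differed in whether they were called. Capitals mark matches, on either strand, to the ETS word GGAAGT, the RUNX word TGTGGT, the NFAT word GGAAAA or the E-box CAGNTG.
Cd3g, chr9:44980432-44980681, minus strand: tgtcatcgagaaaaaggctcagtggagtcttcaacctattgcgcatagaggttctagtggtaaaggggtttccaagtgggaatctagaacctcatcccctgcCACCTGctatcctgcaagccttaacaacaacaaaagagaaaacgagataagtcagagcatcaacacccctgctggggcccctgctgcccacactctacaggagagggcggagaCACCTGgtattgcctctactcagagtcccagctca
Cd3d, chr9:44981536-44981785, plus strand: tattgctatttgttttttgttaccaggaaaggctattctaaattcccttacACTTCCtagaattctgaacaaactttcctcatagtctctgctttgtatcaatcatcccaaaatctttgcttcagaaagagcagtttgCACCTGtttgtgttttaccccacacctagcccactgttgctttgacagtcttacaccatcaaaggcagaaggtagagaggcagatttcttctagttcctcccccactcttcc
Cd3e, chr9:45009612-45009861, minus strand: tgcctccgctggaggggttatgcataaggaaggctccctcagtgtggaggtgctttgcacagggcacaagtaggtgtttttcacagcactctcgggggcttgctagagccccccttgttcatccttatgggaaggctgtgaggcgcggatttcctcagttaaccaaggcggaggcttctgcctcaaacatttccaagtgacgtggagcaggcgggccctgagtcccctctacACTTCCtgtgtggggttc
The Cd3g window held 2 E-boxes, the Cd3d window 1 ETS word and 1 E-box, and the Cd3e window 1 ETS word, whose last base lay 13 bases before the start site. Over the members, 31 of 38 had RefSeq windows, 46 windows in all, so some genes gave more than 1 window. The ETS word stood in 41.3% of these windows and in 19.7% of all 32851 windows of the same length, and the other words were at similar shares (RUNX 15.2% and 14.0%, NFAT 19.6% and 20.4%, E-box 45.7% and 44.8%). Counted by gene, 14 of the 31 had the ETS word, and no share by gene was computed for all windows. The ETS and NFAT words share the letters GGAA. A match describes the letters and is not a measured binding site.

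The antigen receptor chains themselves are encoded outside the 38 genes. Trbc1 and Trbc2, the beta chain constant genes, were called higher (log2 change 0.23 ± 0.04 and 0.29 ± 0.07, edgeR adjusted p = 0.00435 and 0.0126), and Trac, the alpha chain constant gene, was not (-0.27 ± 0.12, edgeR adjusted p = 0.106). These genes were chosen after their values were seen, and the near-identical Trbc1 and Trbc2 can share reads, so how their counts divide is uncertain.

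Among the coreceptors and accessory receptors, Cd2 fell and none of Cd4, Cd5 and Cd6 was called. Cd2, an adhesion receptor that binds CD48 in mice and lowers the amount of antigen needed for activation, was at 209, 245 and 200 CPM in KO and 467, 436 and 440 CPM in WT. Every KO library lay well below every WT library, at 48.7% of the WT mean (log2 change -1.04 ± 0.08, edgeR adjusted p = 9.21e-05). By level per length, Cd2 ranked 4 of the 38 genes in KO, at 189 CPM per kilobase, and 2 in WT, at 388 CPM per kilobase.

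Cd4, the coreceptor that brings Lck to MHC class II, was at 276, 281 and 270 CPM in KO and 269, 120 and 233 CPM in WT. The KO libraries lay close together and just above WT replicate 1, and the WT spread came from WT replicate 2 (log2 change 0.41 ± 0.25, edgeR adjusted p = 0.234). Without WT replicate 2 the log2 change was 0.13 (edgeR adjusted p = 0.177). Cd5, a receptor that dampens the signal and whose level follows its strength, was at 386, 334 and 432 CPM in KO and 206, 352 and 250 CPM in WT. WT replicate 2 lay inside the KO range and the other WT libraries below it (log2 change 0.51 ± 0.19, edgeR adjusted p = 0.0627). Without WT replicate 2 the log2 change of Cd5 was 0.75 (edgeR adjusted p = 0.00157), and DESeq2 also called it with all libraries. Cd6, the neighbour and relative of Cd5, had a log2 change of 0.16 ± 0.09 and was not called (edgeR adjusted p = 0.201).

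**Figure D2:**
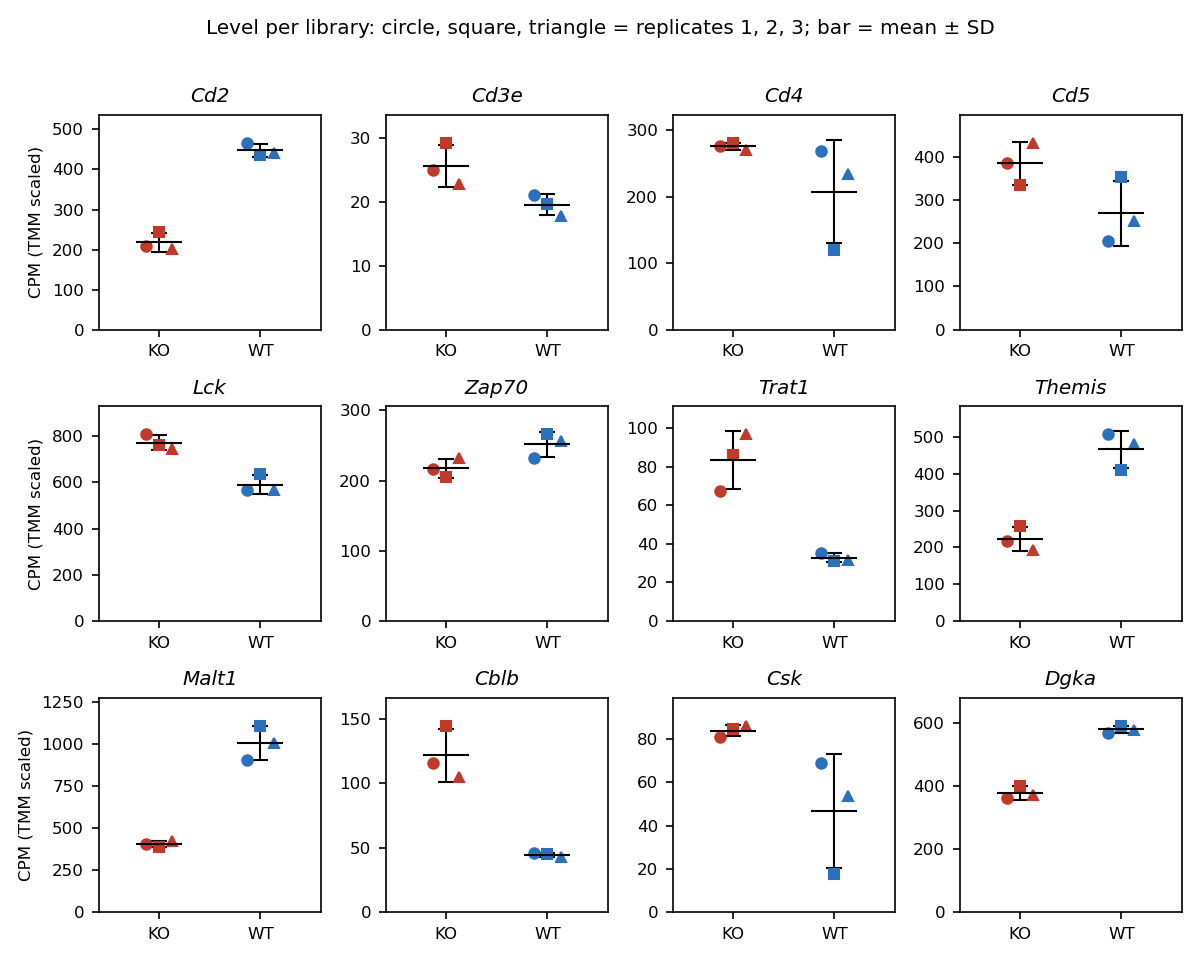
CPM after TMM scaling in each library for 12 of the genes, KO left and WT right, with bars for the mean ± SD over 3 libraries and axes from 0. Cd2, Themis, Malt1 and Dgka separate with KO low, Trat1 and Cblb separate with KO high, and in Cd4 and Csk WT replicate 2 (square) lies below the other WT libraries.

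The receptor-proximal kinases split by gene. Lck was higher and its relative Fyn lower in KO, and Zap70, Txk and Prkcq were not called. The median log2 change of the 5 kinases was -0.21, with 1 called higher and 1 lower. Lck was at 809, 761 and 747 CPM in KO, against 569, 638 and 566 CPM in WT. The groups did not overlap, although WT replicate 2 came closest (log2 change 0.39 ± 0.06, edgeR adjusted p = 0.00239). Fyn, an Src family kinase that can in part stand in for Lck, was at 90.0, 89.9 and 89.5 CPM in KO, against 107, 106 and 102 CPM in WT. The KO libraries were nearly equal and all lower (log2 change -0.22 ± 0.05, edgeR adjusted p = 0.00861). The count ratio of Lck to Fyn within a library was 8.99, 8.46 and 8.34 in KO and 5.30, 6.04 and 5.54 in WT. The ratios did not overlap, with a difference of 0.61 on the log2 scale (exact two-sided permutation p = 0.1, and 0.2 after adjustment over the 16 gene pairs compared).

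Zap70, the kinase that docks on the phosphorylated receptor chains, was at 217, 205 and 232 CPM in KO and 232, 266 and 257 CPM in WT. KO replicate 3 and WT replicate 1 were level, and the remaining KO libraries lay below WT (log2 change -0.21 ± 0.07, edgeR adjusted p = 0.0518). It was called lower when KO replicate 3 was left out (log2 change -0.25, edgeR adjusted p = 0.0425) and when WT replicate 1 was (-0.27, edgeR adjusted p = 0.0222). Its relative Syk, used mainly by B cells and myeloid cells, was low: 8.72, 9.91 and 14.5 CPM in KO and 25.6, 19.3 and 25.2 CPM in WT. The KO libraries lay below all WT libraries (log2 change -1.08 ± 0.20, edgeR adjusted p = 0.00445), while the summed B cell and myeloid markers went the other way. The count ratio of Zap70 to Syk was 24.9, 20.6 and 16.0 in KO and 9.05, 13.8 and 10.2 in WT, without overlap (exact two-sided permutation p = 0.1).

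Txk, a Tec family kinase that acts on phospholipase C gamma, was at 78.7, 89.1 and 67.6 CPM in KO and 97.3, 110 and 83.6 CPM in WT, with KO replicate 2 above WT replicate 3 (log2 change -0.30 ± 0.13, edgeR adjusted p = 0.0911). Leaving out 1 library moved the log2 change of Txk between -0.41, without WT replicate 3, where it was called lower (edgeR adjusted p = 0.0489), and -0.20, without KO replicate 3 (edgeR adjusted p = 0.250). With the Y-linked term it was -0.074. Prkcq, which encodes protein kinase C theta, the link to NF-kB, averaged 306 ± 5.45 CPM in KO and 272 ± 21.5 CPM in WT and was not called (log2 change 0.17 ± 0.07, edgeR adjusted p = 0.0724). It was called higher when WT replicate 2 was left out (log2 change 0.20, edgeR adjusted p = 0.0488).

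Adaptors moved in both directions and held some of the largest changes. Trat1, Tespa1 and Lat were higher in KO, Themis and Grap2 were lower, and Lcp2, Nck1 and Sh2d2a were not called (median log2 change of the 8, 0.16). Trat1 encodes TRIM, a transmembrane adaptor that associates with the receptor complex. It was at 67.5, 86.3 and 97.0 CPM in KO, against 35.5, 31.4 and 31.6 CPM in WT. Every KO library was higher, at 254% of the WT mean (log2 change 1.35 ± 0.13, edgeR adjusted p = 0.000227). Themis encodes a T lineage protein that binds the adaptor Grb2 and is needed for thymocyte selection. It was at 218, 259 and 193 CPM in KO, against 508, 411 and 481 CPM in WT. Every KO library was lower, at 47.8% of the WT mean (log2 change -1.07 ± 0.12, edgeR adjusted p = 0.000428).

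The 250 bases before the start sites of Trat1 and Themis (RefSeq, GRCm38.p6, written as above with the same capitals) are shown as those of the adaptors with the largest change in each direction.
Trat1, chr16:48772063-48772312, minus strand: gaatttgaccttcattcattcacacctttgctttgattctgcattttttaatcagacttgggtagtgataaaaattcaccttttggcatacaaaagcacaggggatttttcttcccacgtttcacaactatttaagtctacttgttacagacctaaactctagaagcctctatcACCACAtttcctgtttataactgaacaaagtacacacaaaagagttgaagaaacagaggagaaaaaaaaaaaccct
Themis, chr10:28668110-28668359, plus strand: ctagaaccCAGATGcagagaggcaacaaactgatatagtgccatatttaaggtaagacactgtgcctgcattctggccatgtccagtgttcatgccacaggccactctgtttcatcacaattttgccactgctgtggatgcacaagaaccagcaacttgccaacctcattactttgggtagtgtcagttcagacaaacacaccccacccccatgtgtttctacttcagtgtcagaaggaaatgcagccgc
The Trat1 window held 1 RUNX word, whose last base lay 71 bases before the start site, and the Themis window 1 E-box, 237 bases before it. Neither held an ETS or an NFAT word as spelled here. RefSeq lists 2 start sites for Themis, and the window shown is that of the site at the GENCODE gene start.

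Lat, the scaffold phosphorylated by ZAP-70, was at 497, 508 and 471 CPM in KO, against 366, 420 and 391 CPM in WT. The groups did not overlap (log2 change 0.33 ± 0.06, edgeR adjusted p = 0.00511). Grap2 encodes GADS, which bridges LAT to SLP-76, and averaged 201 ± 18.4 CPM in KO and 281 ± 20.2 CPM in WT, with all KO libraries lower (log2 change -0.48 ± 0.08, edgeR adjusted p = 0.00301). Lcp2, the SLP-76 gene, averaged 154 ± 12.7 CPM in KO and 143 ± 22.5 CPM in WT and was not called (log2 change 0.11 ± 0.12, edgeR adjusted p = 0.498). It was called higher without WT replicate 2 (log2 change 0.24, edgeR adjusted p = 0.0405). Tespa1, which has a part in thymocyte selection, averaged 31.7 ± 2.34 CPM in KO and 20.8 ± 2.79 CPM in WT, without overlap (log2 change 0.61 ± 0.11, edgeR adjusted p = 0.00423). The remaining adaptors were Nck1, a link to the actin machinery, with a log2 change of -0.13 ± 0.09, and Sh2d2a, which encodes the Lck-binding adaptor TSAd, with 0.22 ± 0.14. Neither was called (edgeR adjusted p = 0.271 and 0.250), and without WT replicate 2 the log2 change of Sh2d2a was 0.058.

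Of the effectors, Malt1 had the largest fall of the 38 genes, Vav3 and Bcl10 were higher, and Vav1, Plcg1, Rasgrp1 and Sos1 were not called (median log2 change of the 7, 0.13). MALT1, a protease, and the adaptor BCL10 stand in the complex that carries the receptor signal to NF-kB. Malt1 was at 408, 386 and 426 CPM in KO, against 905, 1110 and 1007 CPM in WT. All KO libraries were lower, at 40.4% of the WT mean (log2 change -1.31 ± 0.08, edgeR adjusted p = 3.88e-05). By level per length, Malt1 stood in place 15 of 38 in KO, at 63.5 CPM per kilobase, and in place 6 in WT, at 157 CPM per kilobase. Bcl10 was higher, at 91.4 ± 3.45 CPM in KO and 73.8 ± 1.85 CPM in WT (log2 change 0.31 ± 0.06, edgeR adjusted p = 0.00366). The protease gene fell while the adaptor gene Bcl10 rose.

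Vav1 and Vav3 encode exchange factors for small GTPases. Vav3 was at 27.8, 26.4 and 25.3 CPM in KO, against 21.2, 18.2 and 18.7 CPM in WT. The KO libraries were all higher (log2 change 0.45 ± 0.09, edgeR adjusted p = 0.00528). Vav1, the main form in T cells, averaged 360 ± 2.93 CPM in KO and 347 ± 3.29 CPM in WT (95% interval of the log2 change -0.04 to 0.16, edgeR adjusted p = 0.336), and the ratio of Vav3 to Vav1 did not overlap between groups (log2 difference 0.40, exact two-sided permutation p = 0.1). Plcg1, which makes the calcium and diacylglycerol messengers downstream of LAT, averaged 285 ± 23.2 CPM in KO and 239 ± 33.1 CPM in WT and was not called (log2 change 0.26 ± 0.11, edgeR adjusted p = 0.0959, and 0.14 without WT replicate 2). Plcg2, the form known from B cells and myeloid cells, was at 65.2, 56.5 and 92.7 CPM in KO and 28.7, 23.4 and 24.7 CPM in WT. Every KO library was higher, KO replicate 3 most (log2 change 1.48 ± 0.18, edgeR adjusted p = 0.000647). The summed B cell markers were also highest in KO replicate 3 and higher in every KO library than in any WT library, and their part in the Plcg2 result was not tested. Rasgrp1 and Sos1, the exchange factors that activate Ras, had log2 changes of 0.04 ± 0.08 and 0.13 ± 0.12 and were not called (edgeR adjusted p = 0.726 and 0.401).

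Negative regulators had the highest median log2 change of the classes, 0.63, with 3 called higher, 1 lower and 5 not called. The share called, 44.4%, was near the 42.5% of all tested genes. Without WT replicate 2, the library in which Csk and Dgkz were lowest, the median was 0.29, with 6 called higher and 1 lower, against 42.7% of all tested genes called. Cblb encodes a ubiquitin ligase that restrains T cells lacking CD28 costimulation. It was at 116, 145 and 105 CPM in KO, against 46.2, 44.9 and 43.2 CPM in WT. All KO libraries were higher, at 272% of the WT mean (log2 change 1.45 ± 0.12, edgeR adjusted p = 0.000104). Its relative Cbl averaged 44.0 ± 1.85 CPM in KO and 44.9 ± 0.51 CPM in WT and was not called (edgeR adjusted p = 0.715). The count ratio of Cblb to Cbl was 2.75, 3.16 and 2.38 in KO, against 1.04, 0.989 and 0.959 in WT (log2 difference 1.46, exact two-sided permutation p = 0.1).

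Ptpn22 and Csk encode partners that keep Lck inactive, by removing the activating phosphate and by adding the inhibitory one. Ptpn22 was at 183, 165 and 178 CPM in KO, against 104, 118 and 111 CPM in WT. The KO libraries were all higher (log2 change 0.66 ± 0.07, edgeR adjusted p = 0.000257). Csk was at 81.0, 84.4 and 86.2 CPM in KO and 68.9, 17.7 and 53.6 CPM in WT. KO lay above WT in all libraries, but WT replicate 2 was far below the rest and the gene was not called (log2 change 0.85 ± 0.41, edgeR adjusted p = 0.135). Without WT replicate 2 its log2 change was 0.45 (edgeR adjusted p = 0.00823). The upstream window of Ptpn22 (RefSeq, GRCm38.p6, capitals as before) is shown because its call held in every alternative setting.
Ptpn22, chr3:103859545-103859794, plus strand: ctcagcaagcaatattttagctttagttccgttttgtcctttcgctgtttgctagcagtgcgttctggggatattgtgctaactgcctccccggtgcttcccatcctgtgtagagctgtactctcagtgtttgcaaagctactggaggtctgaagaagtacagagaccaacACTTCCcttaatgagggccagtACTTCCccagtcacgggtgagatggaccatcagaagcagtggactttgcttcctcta
It held 2 ETS words, whose last bases lay 74 and 52 bases before the start site, and none of the other words as spelled here. RefSeq lists 2 start sites for Ptpn22 as well, and the window shown also lies at the GENCODE gene start.

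Sla2 and Sla encode adaptors that lead the receptor chains to degradation. Sla2 was low, at 15.4, 14.1 and 14.1 CPM in KO and 10.2, 6.68 and 8.47 CPM in WT. The KO libraries were all higher (log2 change 0.78 ± 0.16, edgeR adjusted p = 0.00560). Its exons share 731 bases with Rab5if on the opposite strand, whose counts were 865% of those of Sla2, so the value is uncertain if strand was not used in counting. Sla averaged 261 ± 20.2 CPM in KO and 253 ± 14.5 CPM in WT and was not called (edgeR adjusted p = 0.638).

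The diacylglycerol kinases remove the messenger that activates RASGRP1 and protein kinase C theta, and of these Dgka fell and Dgkz was not called. Dgka was at 362, 402 and 371 CPM in KO, against 568, 592 and 580 CPM in WT. All KO libraries were lower, at 65.2% of the WT mean (log2 change -0.62 ± 0.06, edgeR adjusted p = 0.000153). Dgkz was at 41.7, 48.4 and 45.3 CPM in KO and 39.8, 14.5 and 33.5 CPM in WT and was not called (log2 change 0.63 ± 0.32, edgeR adjusted p = 0.151). WT replicate 2 was the lowest library, and without it the log2 change was 0.29 (edgeR adjusted p = 0.0415). The count ratio of Dgkz to Dgka was 0.115, 0.120 and 0.122 in KO and 0.070, 0.025 and 0.058 in WT, without overlap (exact two-sided permutation p = 0.1). The log2 difference was 1.36, and 0.90 without WT replicate 2.

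The phosphatase gene Ptpn6, which encodes SHP-1, averaged 217 ± 13.2 CPM in KO and 216 ± 47.2 CPM in WT (log2 change 0.0062, edgeR adjusted p = 0.977). WT replicate 2, at 271 CPM, was above every other library, and without it the log2 change was 0.19 (edgeR adjusted p = 0.0439). Ubash3a, which encodes STS-2, had a log2 change of 0.10 ± 0.07 and was not called (edgeR adjusted p = 0.282). Ptprc encodes CD45, which acts on Lck in both senses by removing its inhibitory and its activating phosphate. It was at 3553, 4049 and 3272 CPM in KO and 2930, 3150 and 3139 CPM in WT. The KO libraries were all higher, KO replicate 3 by little (log2 change 0.24 ± 0.08, edgeR adjusted p = 0.0441). The call was lost without any one of KO replicates 1 and 2 and WT replicates 1 and 3, with log2 changes of 0.16 to 0.26 there.

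**Figure D3:**
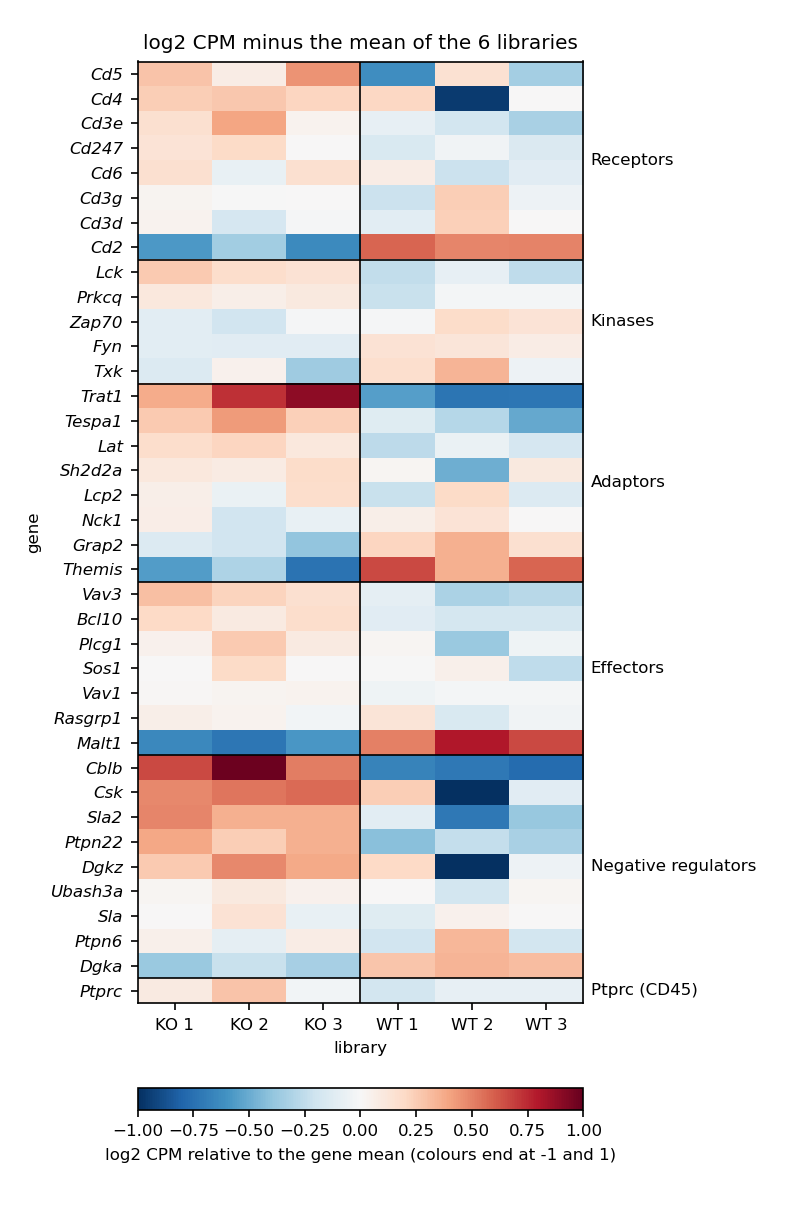
Log2 CPM of the 38 genes in each of the 6 libraries, minus the mean of that gene over the libraries, with KO columns left of WT columns and rows grouped by class. The KO columns resemble each other, while in WT replicate 2 the rows of Cd4, Csk and Dgkz are at the blue end and Cd5 is higher than in the other WT libraries.

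Levels per kilobase of the length given by the authors spread widely over the 38 genes, and the ranks depend on that length. Ptprc ranked 1 in both genotypes, at 631 CPM per kilobase in KO and 535 in WT, and Sos1 was the lowest, at 1.32 in KO and 1.20 in WT. Lck followed Ptprc in KO at 353 CPM per kilobase, against 270 in WT, and Lat had 240 in KO and 191 in WT. Dgka had 134 CPM per kilobase in KO and 205 in WT. In KO, Lck and Lat stood above Cd2, which in WT stood above both.

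**Figure D4:**
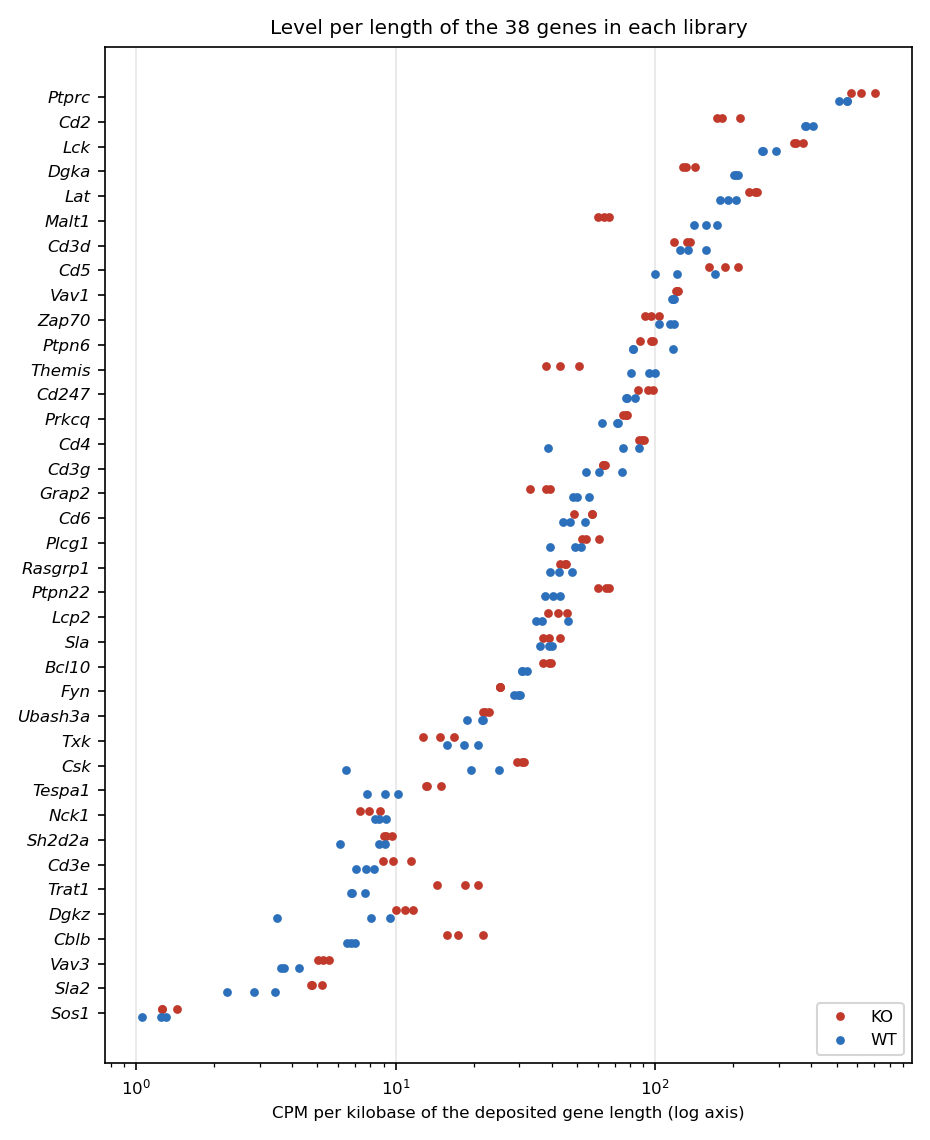
CPM per kilobase of the gene length given by the authors, on a log axis, for each library (KO in red, WT in blue), with genes ordered by their WT mean. The range runs from Ptprc at the right to Sos1 at the left, and KO points lie left of all WT points for Cd2, Dgka, Malt1, Themis and Grap2, among others.

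Taken singly, 55.6% of all tested genes did not overlap between KO and WT, and no such share was computed for other gene pairs. Of the 16 pairs of related genes compared within libraries, 8 did not overlap between KO and WT, each with an exact p of 0.1 and 0.2 after adjustment over the 16. Besides those given above, these were Sla2 to Sla (log2 difference 0.76) and Plcg1 to Plcg2 (-1.19). The count ratio of Plcg1 to Plcg2 was 4.10, 5.50 and 2.98 in KO, against 9.16, 8.58 and 10.2 in WT. The remaining pairs overlapped, among them Ubash3a to Ubash3b (log2 difference -0.25, exact p = 0.5), Nck1 to Nck2 (-0.12, exact p = 0.4), Sos1 to Sos2 (-0.38, exact p = 0.2), Grap2 to Grb2 (-0.21, exact p = 0.6), Cd6 to Cd5 (-0.37, exact p = 0.4) and the ratios of Cd3e and Cd3g to Cd247. Without WT replicate 2 the log2 difference was 0.10 for Grap2 to Grb2, the other direction, and -0.65 for Cd6 to Cd5 and -0.55 for Ubash3a to Ubash3b. Of the relatives that are not among the 38 genes, Sos2 was called higher (log2 change 0.52 ± 0.09, edgeR adjusted p = 0.00326). Neither Ubash3b, Nck2 nor Grb2 was called (edgeR adjusted p = 0.240, 0.953 and 0.396).

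**Figure D5:**
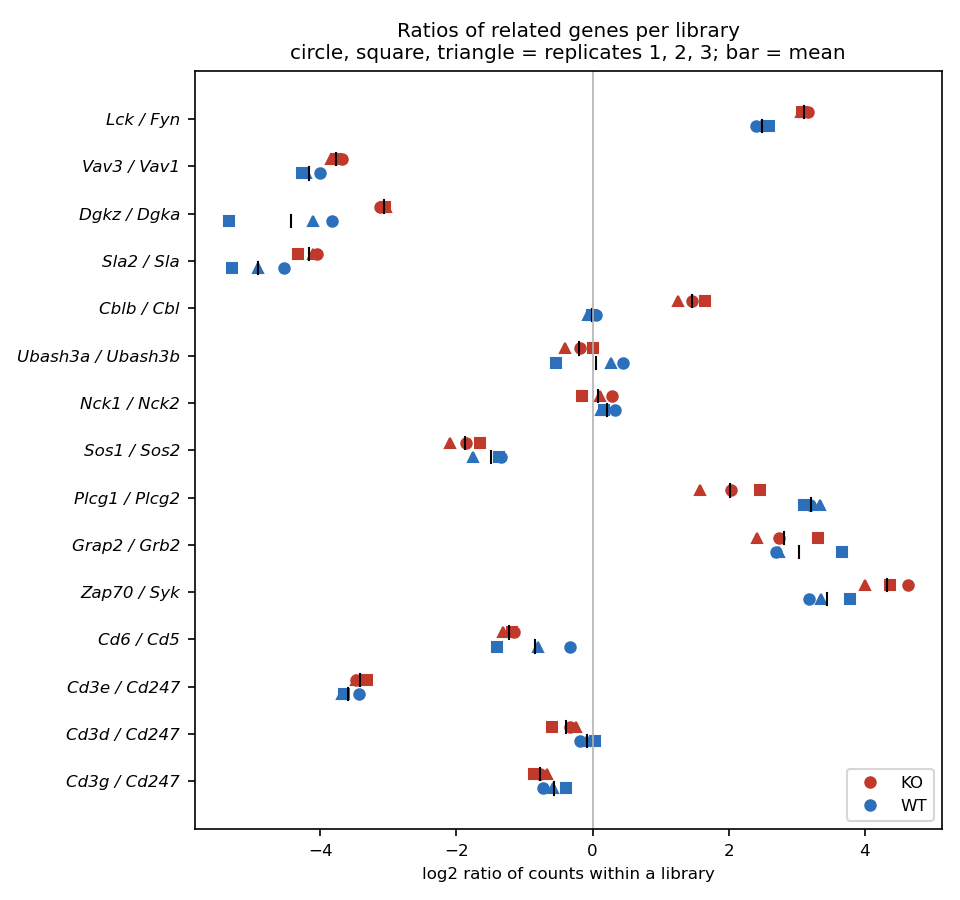
Log2 ratio of the counts of 15 pairs of related genes within each library (0.5 added to each count), with KO above WT in each row, replicates by symbol and the mean as a bar. KO and WT points separate for Lck to Fyn, Vav3 to Vav1, Dgkz to Dgka, Sla2 to Sla, Cblb to Cbl, Plcg1 to Plcg2, Zap70 to Syk and Cd3d to Cd247, and WT replicate 2 (square) is far to the left for Dgkz to Dgka.

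Further genes of the pathway, 77 in number and listed by role, were called at a share of 50.6%, with 18 higher (23.4%), 21 lower (27.3%) and 38 not called (median log2 change -0.03). Over all tested genes 42.5% were called, 21.7% higher and 20.9% lower. The lowest p belonged to Fyb, which encodes ADAP, the adaptor that connects SLP-76 to integrins. It was at 66.7, 81.2 and 68.9 CPM in KO, against 21.7, 23.6 and 18.9 CPM in WT. All KO libraries were higher (log2 change 1.75 ± 0.11, edgeR adjusted p = 4.11e-05), while Skap1, the partner of ADAP, was lower (-0.51 ± 0.06, edgeR adjusted p = 0.000434). Grap, an adaptor of the Grb2 family, was higher (0.71 ± 0.08, edgeR adjusted p = 0.000422). Downstream of BCL10 and MALT1, the ubiquitin ligase gene Traf6 was lower (-0.85 ± 0.07, edgeR adjusted p = 9.35e-05) and the kinase gene Map3k7, which encodes TAK1, was higher (0.66 ± 0.07, edgeR adjusted p = 0.000228). In the calcium branch, Itpr1, an inositol trisphosphate receptor of the endoplasmic reticulum, was higher (0.78 ± 0.07, edgeR adjusted p = 0.000140) and Itpr2 was lower (-0.50 ± 0.09, edgeR adjusted p = 0.00423). Ptpn2, a phosphatase that acts on Lck and on JAK kinases, was lower (-0.54 ± 0.06, edgeR adjusted p = 0.000397).

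Grouped by role after their values were seen, the kinases Tec and Syk were called lower, and of the 8 phosphatases and ubiquitin ligases 0 were called higher and 3 lower (Ptpn2, Ptpn11 and Itch), counts to be read against the 21.7% higher and 20.9% lower of all tested genes. The other roles held calls in both directions: 3 higher and 4 lower of 11 adaptors, 3 and 3 of 16 calcium and NFAT genes, 3 and 3 of 12 Ras and MAPK genes, 2 and 2 of 6 PI3K and Akt genes, 2 and 1 of 6 NF-kB genes, and 3 and 1 of 11 actin regulators. Of the receptor genes beside Trac, Trbc1 and Trbc2, the costimulatory receptor gene Cd28 was lower, at 388, 428 and 383 CPM in KO and 541, 520 and 625 CPM in WT. The KO libraries all lay below WT (log2 change -0.49 ± 0.08, edgeR adjusted p = 0.00244). Skap1, Itpr2, Tec, Ptpn11, Itch and Cd28 were chosen after their values were seen.

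The authors' deposited table calls 19 of the 38 genes at an adjusted p under 0.05, 18 of them also called by edgeR and the other being Cd5, and gives all 38 the same sign as the edgeR fit.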

How the data were processed

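Counts per gene were deposited by the authors for 6 libraries (TruSeq Stranded with Ribo-Zero, per the labels' protocols). The submitters' processing notes name the tools STAR, featureCounts, DESeq2 and DESeq and, as build, GRCm38.p3, with no tool versions. Whether counting used the strand is not given in the sources used here. The authors also deposited a normalized signal, equal to the count divided by 1 factor per sample (checked on counts above 5), a log2 fold change, an adjusted p-value and a length per gene. These were used for side-by-side counts and, for length, for CPM per kilobase.

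Spike-in entries (92) were removed and genes were kept by filterByExpr (minimum count 10, minimum total count 15). The quasi-likelihood test of edgeR 4.0.16 (R 4.3.3) with TMM scaling and genotype as the only term gave log2 changes, KO over WT. P-values were adjusted by Benjamini-Hochberg over 16006 genes. The SE was taken from the coefficient and its F statistic (absolute coefficient over root F), and 95% intervals come from the same fit. The pipeline was tested on simulated data. There, 63, 64 and 67 of 15700 tested genes were given true log2 changes of 0.5, 1 and 2 in size. Of these, 19.0%, 56.25% and 89.6% were called in the right direction, so a gene not called may still have changed. In the real data 42.5% of tested genes were called, a far larger share than was changed in the simulation. The simulated rates therefore need not hold for these data. Of the calls in that simulation, 8.47% were false, so a called gene need not have changed. Count ratios within libraries were compared by exact permutation over the 6 libraries. Positions came from GENCODE M21 on GRCm38, upstream windows from RefSeq on GRCm38.p6, a later patch release of the build named by the submitters.

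Samples were grouped by title, and no library was left out. The members and lists were chosen with earlier results of these data known. The text gives values in every library for Prmt5, the CD3 complex, Cd4, Lck, Zap70, Lat, Ptprc, the 4 highest and 4 lowest members and the 2 with the largest change of each class. Of the further pathway genes it names the 6 with the lowest p and the partners in a pair, and of other cell types the 2 most abundant markers. Other genes named, and the values per library given for members and pathway genes beyond this rule (such as Fyn, Ptpn22 and Dgkz), were chosen after values were seen. Alternatives were DESeq2 1.42.0, limma-voom (limma 3.58.1), RLE, upper-quartile and spike-in scaling, 2 other filters, leaving out each library, KO replicate 2 alone, the replicate number as a block, and the Y-linked level as a covariate. Some genes that these rules take are not reported here.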

Additional observations from a re-analysis of the deposited data

How the results depend on the processing

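Over 16 alternatives for each of the 38 genes, 529 values kept their direction and their side of the threshold, 27 gained and 33 lost a call with the same direction, and 19 changed sign, none of them a called gene. Leaving out 1 library gave 9 to 18 members called higher and 6 to 7 lower, 14 to 16 further pathway genes higher and 14 to 25 lower, 2691 to 3545 of all genes higher and 2469 to 3488 lower, 9 to 10 gene pairs without overlap, and log2 changes of Prmt5 of -1.36 to -1.20. Members called with all libraries and lost were Cd3e (without KO replicate 1, KO replicate 2 or WT replicate 3) and Cd247 and Ptprc (the same, and WT replicate 1), and without WT replicate 2 Cd5, Csk, Dgkz, Lcp2, Prkcq and Ptpn6 were gained, for 24 calls.

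Where KO replicate 2 alone stood for KO, a fit that assumes it varies as the other group does, 5 members were higher, and 6 further pathway genes higher and 8 lower, with 1424 and 1328 of all genes. With the Y-linked term, 7 members were higher, with 10 further pathway genes higher and 9 lower, and 1830 and 1648 of all genes. With spike-in scaling, 3 members were lower, with 11 further pathway genes higher and 3 lower, and 1363 of all genes lower. The cause was not tested.

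Signs changed with spike-in scaling for Cd3d (0.041) and Nck1 (0.023), without a filter for Cd3g (-0.0034), with KO replicate 2 alone for Cd3g (-0.0028), Lcp2 (-0.013) and Ptpn6 (-0.092), and with the Y-linked term for Cd3g (-0.010), Cd6 (-0.029), Lcp2 (-0.049) and Ptpn6 (-0.12). Leaving out 1 library changed the sign of Cd3g (-0.10 to 0.13), Ptpn6 (-0.090 to 0.19), Sla (-0.0089 to 0.10) and Rasgrp1 (-0.034 to 0.11).

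No clear pairing of the libraries by replicate number was seen. The deviations of same-numbered libraries correlated at -0.02, 0.0060 and 0.08, and those of differently numbered libraries at -0.06 to 0.05. With 3 libraries a group, these values cannot exclude a pairing. With the replicate block, 12 members were higher and 7 lower (Txk was gained), 15 further pathway genes higher and 22 lower, 3202 and 2988 of all genes, 11 gene pairs kept 1 sign in every pairing, and the log2 change of Prmt5 was -1.28. With 3 libraries a group, members at low counts such as Sla2 and Sos1 have the least support.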
